A study of Rattus norvegicus with 12 samples.

Results

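This account compares Wnt5a siRNA with control siRNA in rat cardiomyocytes that were not stretched. It rests on 6 of the 12 RNA sequencing libraries of the series, chosen by their labels: 3 libraries of cells that received the control siRNA (unstretched control 1 to 3, here control 1 to 3) and 3 of cells that received Wnt5a siRNA (unstretched Wnt5a siRNA 1 to 3, here siRNA 1 to 3). All came from Wistar rats, and the series describes the cells as ventricular cardiomyocytes of newborn animals, so both groups were cultured, immature heart muscle cells, and the knockdown was transient rather than a deletion. The other 6 libraries, 3 of stretched control siRNA cells and 3 of stretched Wnt5a siRNA cells, entered the fit and the last comparison. Whether libraries with different numbers were grown as separate cultures is not said in the labels. The p-values therefore speak only of the variation among the libraries at hand, and that variation may be technical.

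Wnt5a is a secreted ligand that binds Frizzled receptors and the receptor tyrosine kinases Ror1, Ror2 and Ryk. It is best known for signalling that does not run through beta-catenin: it acts on the kinase JNK and on calcium, and shapes cell polarity. The title of the series places it with YAP, a transcriptional co-activator that responds to mechanical load. Newborn cardiomyocytes are in transition from a fetal state, with glucose use, cell division and fetal contractile isoforms, to an adult state that burns fatty acids.

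Expression was given as FPKM, fragments per unit of transcript length, scaled to the size of the library. Summed FPKM were 588509 to 598628 in the control and 575161 to 607276 in the siRNA libraries. FPKM hold no read numbers, but low values came in steps of 1 fragment, and these gave a relative depth of 1.11 for control 2, 1.01 for control 3, and 1.20, 1.20 and 1.16 for siRNA 1 to 3, with control 1 as 1. Any scaling between libraries is part of these figures, and the siRNA libraries were all slightly deeper than the controls. Each library listed the same 17312 symbols. A value above 0 in 1 or more of the 6 libraries was listed for 13430, and 10518 passed the filter on low values. Log2 changes are Wnt5a siRNA minus control siRNA on log2(FPKM + 1), with their standard error, and a gene was called where limma's adjusted p was under 0.05.

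Knockdown of Wnt5a went with many changes of small size. Of the 10518 genes, 3002 were called (28.5%): 1536 rose (14.6%) and 1466 fell (13.9%), with a median absolute log2 change of 0.45. Of these, 67 rose and 96 fell by 2-fold or more, and 438 rose and 467 fell by 1.5-fold or more. The median log2 change of all tested genes was 0.0013. Fewer were called with a library left out: 1943 genes were called without control 2, 1758 without control 3, 1865 without siRNA 1 and 1960 without siRNA 2. The libraries of the 2 groups did not overlap for 49.4% of the genes. The filter was passed by 309 genes without either unstretched group having all 3 libraries at 1 FPKM or more.

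Genes were read in 45 lists by role, which held 1018 measured members, 928 of them tested. Each count of rises and falls in a list stands beside 14.6% and 13.9% of all genes tested. A count near these shares is no result about the list. The label of the cells was checked against cell type markers. All 15 cardiomyocyte markers in the tables were tested, and their summed FPKM, 36610 to 39230 in the control and 28780 to 39340 in the siRNA libraries, overlapped between groups and lay above the sum of every other cell type list. Of these markers 2 rose and 5 fell (median log2 change −0.35; 8 fell without stretched control 3). In bulk RNA, fewer cells of a type and less RNA per cell cannot be told apart.

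The targeted transcript was measured first. Wnt5a was at 12.3, 10.4 and 11.6 FPKM in the control and 6.15, 4.6 and 6.81 in the siRNA libraries. Every siRNA library lay below every control library, with 51.2% of the control mean left (log2 change −0.87 ± 0.14, adjusted p = 0.00142). It was called under every alternative setting run, and Wnt5a remained detectable in all 3 siRNA libraries.

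Some genes of Wnt signalling moved, in both directions. Of 26 tested ligand, receptor and planar polarity genes (of 46 listed), 8 rose and 3 fell, Wnt5a included, with a median log2 change of 0.05. The count of rises was 3 without siRNA 1 or siRNA 2, 4 without control 2 or control 3, and 5 without siRNA 3, and that of falls was 1 without siRNA 2. The 11 called genes stand beside 28.5% of all genes, but they include Wnt4, which passed the filter only through the siRNA group and so had to differ. Without siRNA 2, 4 of the 26 were called, beside 1960 of all 10518. Wls, the carrier that takes Wnt proteins to the cell surface, rose from 215, 212 and 205 FPKM to 287, 292 and 266 (log2 change 0.42 ± 0.06, adjusted p = 8.69e-04). Ptk7, a planar polarity co-receptor, rose by 0.60 ± 0.10. Of the Wnt ligands, Wnt4 was at 0.526, 0.714 and 0.907 FPKM in the control and 1.97, 1.10 and 2.39 in the siRNA libraries, low in all libraries; it passed the filter only through the siRNA group, so its values are given without a test. Wnt9a did not pass (log2 change 0.03 ± 0.14, adjusted p = 0.898).

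The receptors were split. Ror2, a Wnt5a receptor, was at 14.1, 14.1 and 13.7 FPKM in the control and 18.5, 23.1 and 15.7 in the siRNA libraries, without overlap (log2 change 0.41 ± 0.12, adjusted p = 0.022), and its call was lost without control 2, control 3, siRNA 1 or siRNA 2. Ror1 (−0.17 ± 0.15) and Ryk (0.04 ± 0.07) did not pass. Among the Frizzled genes Fzd1, the most abundant, fell (log2 change −0.46 ± 0.12, adjusted p = 0.0159) and Fzd2 rose (log2 change 0.61 ± 0.16, adjusted p = 0.0138). The call for Fzd1 was lost without siRNA 2 and that for Fzd2 without control 3 or siRNA 2. Fzd3 (0.20 ± 0.12), Fzd4 (−0.12 ± 0.11), Fzd5 (0.23 ± 0.17) and Fzd6 (−0.21 ± 0.13) did not pass. Of 8 tested secreted Wnt antagonists, 1 rose (0 without control 3, siRNA 1 or siRNA 2) and 2 fell: Dkk3 fell by 0.43 ± 0.07, and Sfrp2, which binds Wnt proteins, fell by 0.83 ± 0.21, a call lost without control 2.

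Downstream of the ligand, genes of calcium signalling moved in both directions. Camk2b, the beta subunit of calcium and calmodulin-dependent kinase II, was at 0.667, 0.781 and 0.913 FPKM in the control and 3.56, 3.69 and 2.72 in the siRNA libraries. It was low in the controls and several times higher in each siRNA library (log2 change 1.27 ± 0.14, adjusted p = 3.52e-04). Plcb4, a phospholipase C that raises calcium, fell by 0.43 ± 0.06, and Rcan2, a regulator of the phosphatase calcineurin, fell by 0.57 ± 0.14. Of 8 beta-catenin target genes 1 rose and 1 fell (0 falls without control 3). Ccnd1, cyclin D1, rose by 0.50 ± 0.12, and Tcf7l2, a nuclear partner of beta-catenin, fell by 0.36 ± 0.09, a call lost without control 3.

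**Figure D1:**
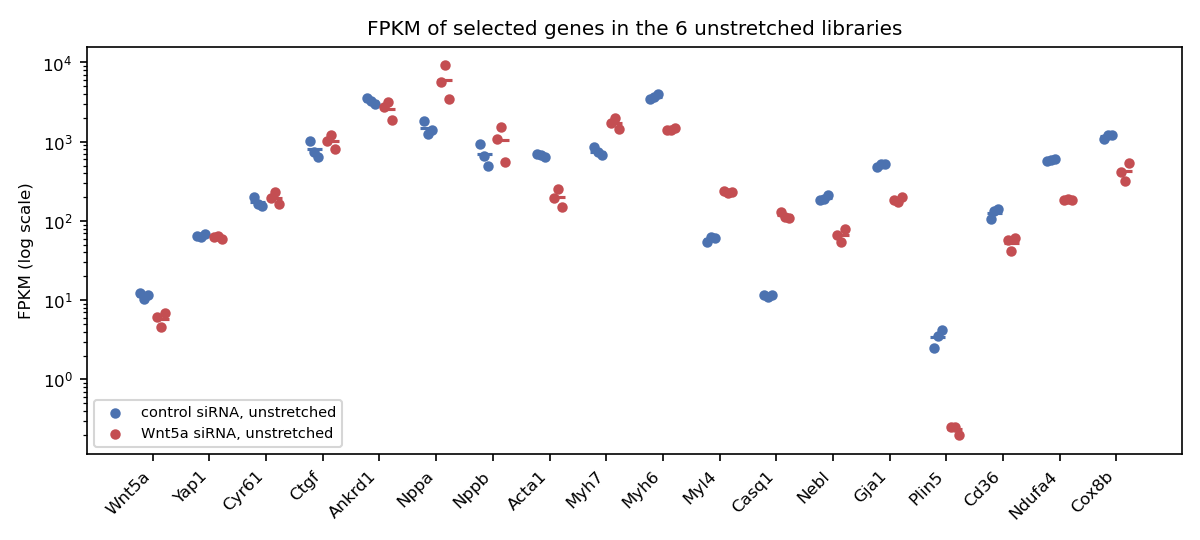
FPKM (log scale) of 18 genes in each unstretched library; points are libraries, short bars are group means, control siRNA in blue and Wnt5a siRNA in red. Wnt5a, Acta1, Myh6, Nebl, Gja1, Plin5, Cd36, Ndufa4 and Cox8b lay lower in every siRNA library, Nppa, Myh7, Myl4 and Casq1 higher, and Yap1, Cyr61, Ctgf, Ankrd1 and Nppb overlapped.

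YAP targets gave no common change without stretch. Yap1 itself was at 64.6, 62.6 and 68.7 FPKM in the control and 62.5, 63.9 and 59.4 in the siRNA libraries, with overlapping groups (log2 change −0.07 ± 0.07, adjusted p = 0.431, 95% interval −0.22 to 0.07). Cyr61 (Ccn1), a matricellular YAP target, was at 203, 163 and 155 FPKM in the control and 194, 234 and 162 in the siRNA libraries (log2 change 0.17 ± 0.18, adjusted p = 0.499), and Ctgf (Ccn2), another, at 1031, 746 and 647 FPKM in the control and 1023, 1224 and 806 in the siRNA libraries (log2 change 0.34 ± 0.22, adjusted p = 0.276). Both overlapped between groups, with the highest value in siRNA 2. Ankrd1, a stress-responsive partner of titin, was at 3587, 3294 and 2963 FPKM in the control and 2752, 3184 and 1883 in the siRNA libraries (log2 change −0.36 ± 0.22, adjusted p = 0.246), with siRNA 1 and siRNA 3 below the controls and siRNA 2 among them. Of 21 YAP and TAZ target genes 4 rose and 1 fell (median 0.11), and of 20 Hippo pathway components 5 rose and 0 fell (median 0.08). Beside these counts, 28.5% of all genes were called. In a fit with a replicate block 4 of the YAP and TAZ targets fell, and Ankrd1 was called. The Hippo count was 2 without control 3, siRNA 1 or siRNA 2 and 3 without control 2. Axl, a receptor kinase, and Myof, a membrane repair protein, rose by 0.35 ± 0.07 and 0.41 ± 0.09, while Vgll4, a competitor of YAP for TEAD factors, fell by 0.37 ± 0.08.

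Of 18 fetal and hypertrophic markers 6 rose and 3 fell, with a median of 0.12; 1 fell without control 2, control 3, siRNA 1 or siRNA 3. Nppa, the precursor of atrial natriuretic peptide and a fetal gene of the ventricle, was at 1817, 1252 and 1415 FPKM in the control and 5693, 9162 and 3415 in the siRNA libraries. All 3 siRNA libraries lay above the controls, and were spread more widely than them (log2 change 1.93 ± 0.35, adjusted p = 0.00239). Nppb, its brain-type relative, overlapped between groups, at 944, 664 and 487 FPKM in the control and 1074, 1519 and 560.3 in the siRNA libraries, and did not pass (log2 change 0.53 ± 0.39, adjusted p = 0.333). Xirp2, an actin-binding protein of the intercalated disc, rose from 36.7, 27.8 and 27.5 to 127, 121 and 90.5 FPKM (log2 change 1.84 ± 0.25, adjusted p = 7.38e-04). Fhl2, a LIM protein of the sarcomere, fell by 0.73 ± 0.09.

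Myosin and actin isoforms shifted in both directions. Myh7, the slow beta heavy chain and the fetal form in rodents, was at 846, 732 and 676 FPKM in the control and 1729, 1966 and 1446 in the siRNA libraries (log2 change 1.18 ± 0.13, adjusted p = 3.36e-04). Myh6, the alpha heavy chain of the adult rodent ventricle, was at 3439, 3631 and 3985 FPKM in the control and 1405, 1410.0 and 1506 in the siRNA libraries (log2 change −1.35 ± 0.28, adjusted p = 0.00452); it was singled out after its values were seen, as the partner of Myh7. Without overlap in either gene, the mean of Myh7 went from below that of Myh6 to above it on the FPKM scale. Myl4, the atrial and fetal essential light chain, was at 55.0, 62.8 and 60.8 FPKM in the control and 238, 225 and 231 in the siRNA libraries, about 3.89-fold higher and with little spread (log2 change 1.94 ± 0.12, adjusted p = 4.72e-06). Acta1, skeletal alpha-actin, also a fetal gene, went the other way, at 704, 689 and 642 FPKM in the control and 196, 255 and 149.5 in the siRNA libraries (log2 change −1.79 ± 0.54, adjusted p = 0.0275). Its groups did not overlap, but its call was lost without control 1, 2 or 3, siRNA 1 or siRNA 3, or without a filter on low values, with adjusted p from 1.92e-04 to 0.0816 over the alternatives.

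Of 23 tested sarcomere genes (of 25 listed), 4 rose and 7 fell, with a median of −0.35. The rises numbered 2 without control 3, siRNA 1 or siRNA 2, and the falls 11 without stretched control 3. Nebl, nebulette of the Z-disc, was at 182, 189 and 209.7 FPKM in the control and 67.4, 55.0 and 78.5 in the siRNA libraries, 2.89-fold lower in the siRNA mean (log2 change −1.53 ± 0.25, adjusted p = 0.00142). Tmod1, which caps thin filaments, fell by 0.45 ± 0.09.

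Genes of calcium handling and the action potential fell more often than they rose. Of 33 tested (of 35 listed), 14 fell and 6 rose, with a median of −0.50. Beside them, the cardiomyocyte markers had a median of −0.35. Ryr2 and Pln, given below, are among these markers too. Summed fibroblast markers were 5719 to 6146 FPKM in the control and 9174 to 9730 in the siRNA libraries. The part of either marker set in the result was not tested. Gja1, connexin 43 of the gap junction, was at 484, 529 and 518 FPKM in the control and 186, 173 and 203 in the siRNA libraries, without overlap and 2.73-fold lower (log2 change −1.44 ± 0.12, adjusted p = 4.30e-05). Pln, phospholamban, the brake on the calcium pump, fell from 1138 ± 76.4 to 568 ± 113 FPKM (SD, n = 3; log2 change −1.02 ± 0.17, adjusted p = 0.00145). Ryr2, the calcium release channel of the sarcoplasmic reticulum, fell by 0.79 ± 0.13. Cacna1c, the pore of the L-type calcium channel, fell by 0.74 ± 0.09, and Kcnj2, the inward rectifier that sets the resting potential, by 1.08 ± 0.15.

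Casq1 moved against them. This skeletal muscle calsequestrin, which stores calcium, was at 11.6, 11.1 and 11.7 FPKM in the control and 129.7, 114 and 110.2 in the siRNA libraries, a mean 10.3-fold higher and without overlap (log2 change 3.25 ± 0.34, adjusted p = 2.69e-04). Of 16 muscle calcium, carbonic anhydrase and creatine genes 4 rose and 4 fell (2 falls without control 2, control 3 or siRNA 1). Of the 16, 1 passed the filter on low values only through the unstretched controls and 1 only through the siRNA group. Both had to differ. With a filter at 5 FPKM 2 rose and 4 fell. Car14, a membrane carbonic anhydrase, fell by 1.14 ± 0.19 and Ckm, muscle creatine kinase, by 1.18 ± 0.26, while Car3, a cytosolic carbonic anhydrase, was among the largest rises, given later. Of 22 receptors for natriuretic peptides, catecholamines and vasoactive agents, 7 fell and 2 rose; 4 fell without control 2, control 3 or siRNA 2, and 0 rose without control 3, siRNA 1 or siRNA 2 and 1 without control 1 or control 2. The muscarinic receptor Chrm2 fell by 0.66 ± 0.10, the endothelin receptor Ednra by 0.57 ± 0.12 and the adrenergic receptor Adra1b by 0.72 ± 0.16. Of 24 cardiac transcription factors 9 fell and 0 rose, among them Tbx5 (−0.50 ± 0.09) and Prox1 (−0.41 ± 0.10). That count was 5 without control 2 or siRNA 1 and 4 without control 3 or siRNA 2.

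**Figure D2:**
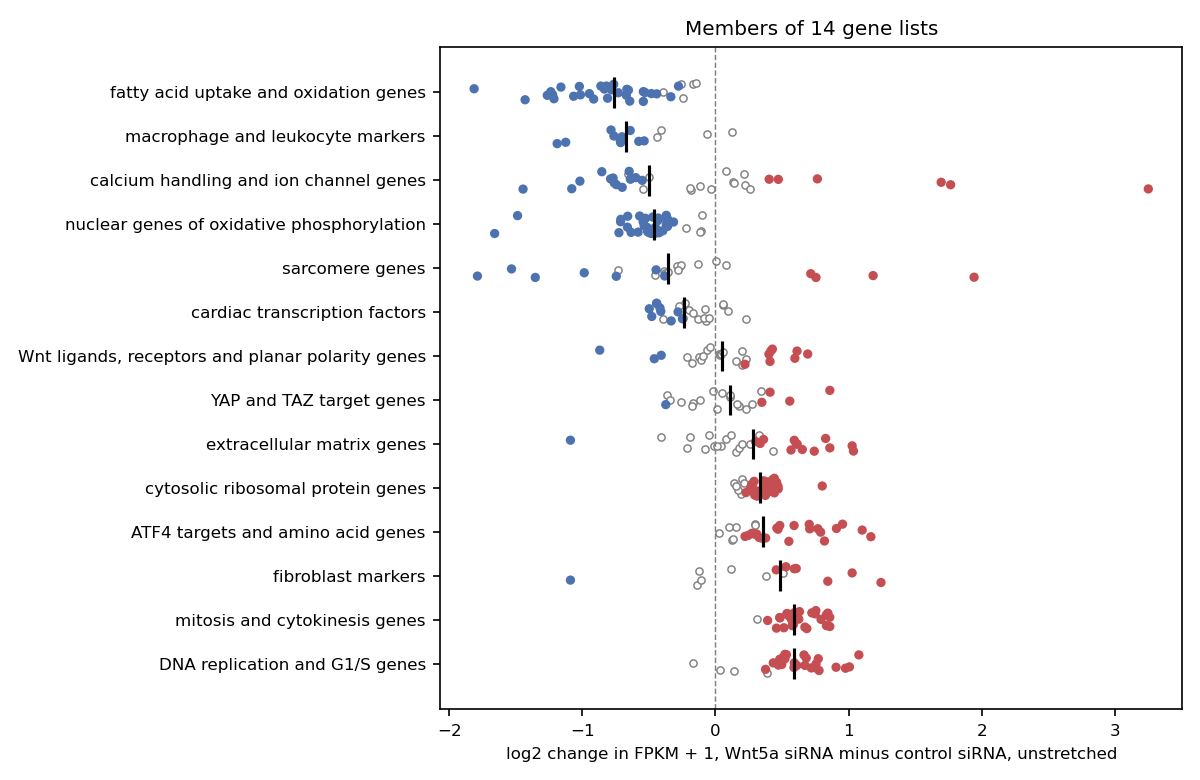
Log2 change in FPKM + 1 with Wnt5a siRNA for each tested member of 14 gene lists; filled points were called (red rose, blue fell), open points were not, and black bars are list medians. All tested fatty acid oxidation and oxidative phosphorylation genes lay below 0, and all mitosis and ribosomal protein genes and 28 of 29 replication genes above it.

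Genes of fatty acid use fell together. Of 35 tested genes of fatty acid uptake and oxidation (of 39 listed), 30 fell and 0 rose, and all 35 had a log2 change below 0, with a median of −0.76 beside 0.0013 for all genes. Between 24 and 28 fell with any unstretched library left out. Of the 35, 2 passed the filter on low values only through the unstretched controls, and so had to differ. Cd36, the fatty acid transporter of the sarcolemma, was at 105, 132 and 143 FPKM in the control and 56.8, 41.9 and 61.4 in the siRNA libraries, without overlap (log2 change −1.24 ± 0.14, adjusted p = 3.96e-04). Slc25a20, the carnitine carrier of the inner mitochondrial membrane, fell by 1.01 ± 0.12, and Pdk4, which shuts pyruvate out of oxidation, fell by 1.26 ± 0.17. Neither overlapped between groups. Plin5, which coats lipid droplets beside mitochondria, was at 2.50, 3.49 and 4.17 FPKM in the control and 0.251, 0.253 and 0.196 in the siRNA libraries, and is 1 of the 2 genes that passed only through the controls, so its values are given without a test.

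Genes of the respiratory chain fell as well, by less. Of 38 tested nuclear genes of oxidative phosphorylation (of 39 listed), 34 fell and 0 rose, with a median of −0.46, and 31 to 35 fell with any unstretched library left out. Of the 34, 8 passed with a fall of 1.5-fold or more. Ndufa4, a subunit associated with cytochrome c oxidase, was at 577, 580.0 and 606 FPKM in the control and 184, 187 and 186 in the siRNA libraries. Its 3 siRNA libraries lay close together and far below the controls (log2 change −1.66 ± 0.08, adjusted p = 6.76e-07). Cox8b, the muscle form of a small cytochrome c oxidase subunit, was at 1072, 1219 and 1231 FPKM in the control and 419, 318 and 546 in the siRNA libraries (log2 change −1.49 ± 0.16, adjusted p = 3.36e-04). Ndufv2, of complex I, and Atp5c1, of ATP synthase, fell by 0.51 ± 0.06 and 0.72 ± 0.09.

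Glycolysis and defence against oxidants changed less evenly. Of 28 genes of glycolysis, glucose transport and glycogen, 8 fell and 2 rose (median −0.15; 4 fell and 1 rose without control 3). Pgam2, the muscle phosphoglycerate mutase, was at 22.2, 33.9 and 29.1 FPKM in the control and 5.28, 8.53 and 8.62 in the siRNA libraries (log2 change −1.80 ± 0.31, adjusted p = 0.00195), and Pfkp, the platelet form of phosphofructokinase, rose by 0.63 ± 0.12. Of 30 NRF2 target and antioxidant genes 8 fell and 3 rose (median −0.12; 5 fell without control 3 and 1 rose without siRNA 1). Gpx1, glutathione peroxidase, fell from 366 ± 19.5 to 191 ± 7.42 FPKM (SD, n = 3; log2 change −0.94 ± 0.11, adjusted p = 3.96e-04), and Cat, catalase, fell by 0.69 ± 0.10.

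**Figure D3:**
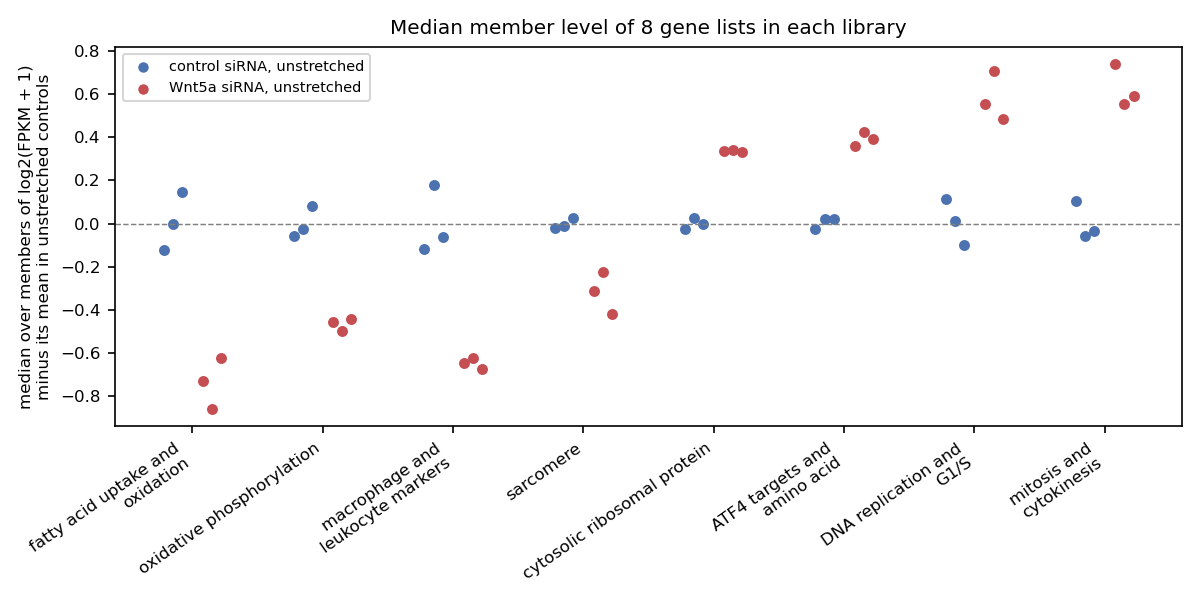
Median over the members of 8 gene lists of log2(FPKM + 1) minus each gene's mean in the unstretched controls, 1 point per library, control siRNA in blue and Wnt5a siRNA in red. Fatty acid oxidation genes lay at −0.73, −0.86 and −0.63 in the siRNA libraries and DNA replication genes at 0.56, 0.71 and 0.49, and the groups were separate in all 8 lists.

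Genes of the cell cycle rose together. Of 29 tested DNA replication and G1/S genes (all 29 listed), 25 rose and 0 fell, with a median of 0.59. Of 28 mitosis and cytokinesis genes 27 rose and 0 fell, also with a median of 0.59; 17 rose without siRNA 1, a lower count than without any other library. Mcm3, a subunit of the replicative helicase, was at 10.7, 8.59 and 9.49 FPKM in the control and 21.0, 23.1 and 19.9 in the siRNA libraries, without overlap (log2 change 1.08 ± 0.12, adjusted p = 3.36e-04). Rrm2, which makes deoxynucleotides, rose by 0.68 ± 0.08, Mcm6, another helicase subunit, by 0.91 ± 0.12, and Cdc45, a cofactor of the helicase, by 0.77 ± 0.11. The proliferation marker Mki67 rose from 10.5, 9.29 and 9.42 to 18.4, 15.7 and 17.2 FPKM (log2 change 0.75 ± 0.13, adjusted p = 0.00174), Cdc20, the activator of the anaphase-promoting complex, by 0.84 ± 0.15, Top2a, the topoisomerase that untangles chromosomes, by 0.79 ± 0.15, and cyclin A2 (Ccna2) by 0.55 ± 0.10. Cdkn1a, the inhibitor p21, was at 106, 109 and 134 FPKM in the control and 51.8, 46.6 and 48.4 in the siRNA libraries, without overlap (log2 change −1.23 ± 0.23, adjusted p = 0.00291), while Cdkn2c, the inhibitor p18, rose by 0.62 ± 0.14.

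Some fibroblast markers rose in the same libraries. Whether the cell cycle genes were expressed in cardiomyocytes or in other cells of the culture was not tested. Of 14 fibroblast markers 7 rose and 1 fell (median 0.48). The 6 uncalled were Tcf21 (−0.11), Dpt (−0.12), Lum (−0.14), Thy1 (0.12), Pdgfra (0.38) and Ddr2 (0.51). Summed FPKM of the markers were 5719 to 6146 in the control and 9174 to 9730 in the siRNA libraries. The most abundant members were Col1a1, S100a4, Col3a1 and Vim, at means of 2017, 1615, 1484 and 1457 FPKM, all called higher. Col1a2 was listed at 0 in all 12 libraries. The rises numbered 3 without control 1 or control 3 and 4 without siRNA 1 or siRNA 2. S100a4, a calcium-binding protein, was at 987, 940.0 and 943 FPKM in the control and 2216, 2521 and 2082 in the siRNA libraries (log2 change 1.24 ± 0.15, adjusted p = 4.98e-04). Vim, vimentin, rose by 0.53 ± 0.09 and Col1a1, of type I collagen, by 0.59 ± 0.14. Dcn, decorin, a collagen-binding proteoglycan of fibroblasts, went the other way, at 173, 256 and 219.7 FPKM in the control and 99.7, 89.9 and 111 in the siRNA libraries (log2 change −1.09 ± 0.14, adjusted p = 5.09e-04).

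Because the members of these lists moved together, the promoters of some of them are shown. RefSeq promoters (build GRCr8) were read over the 250 bases before the start of each gene, on the gene's strand, and both strands were searched for the letters of a known element. The E2F letters TTTCCCGC or TTTGGCGC stood in 7 of 23 matched DNA replication promoters (30.4%) and in 1.26% of all 27457 promoters. The cell cycle homology region TTTGAA stood in 10 of 22 matched mitosis promoters (45.5%) and in 16% of all. CCAAT stood in 17 of these 22 (77.3%) beside 34.3% of all. It was also in 13 of the 23 replication promoters (56.5%) and 16 of 29 of ATF4 targets and amino acid genes (55.2%). For fatty acid oxidation and oxidative phosphorylation genes it was in 9 of 28 (32.1%) and 8 of 32 (25%). A match is a description of letters and not of a bound site. One replication gene and 3 mitosis genes named above are given, 5′ to 3′ and ending at the base before the start, with the E2F or TTTGAA letters, on either strand, in capitals.
Mcm6 (chr13:42404353-42404602, minus strand, GRCr8): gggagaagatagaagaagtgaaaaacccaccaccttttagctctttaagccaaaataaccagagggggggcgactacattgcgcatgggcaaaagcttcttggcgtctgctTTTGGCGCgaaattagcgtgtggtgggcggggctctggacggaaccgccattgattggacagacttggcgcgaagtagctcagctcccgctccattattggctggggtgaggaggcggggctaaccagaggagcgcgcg
Mki67 (chr1:199952594-199952843, minus strand, GRCr8): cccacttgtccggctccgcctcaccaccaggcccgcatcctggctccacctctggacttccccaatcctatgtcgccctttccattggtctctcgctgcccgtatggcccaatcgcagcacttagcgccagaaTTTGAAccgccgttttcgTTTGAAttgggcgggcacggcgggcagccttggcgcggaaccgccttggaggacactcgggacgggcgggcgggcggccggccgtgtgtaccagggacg
Cdc20 (chr5:137255800-137256049, minus strand, GRCr8): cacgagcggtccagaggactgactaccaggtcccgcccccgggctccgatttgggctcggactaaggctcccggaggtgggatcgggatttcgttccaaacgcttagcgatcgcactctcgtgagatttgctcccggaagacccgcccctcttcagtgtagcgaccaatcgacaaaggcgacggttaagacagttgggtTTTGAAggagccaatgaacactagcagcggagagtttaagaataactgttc
Top2a (chr10:84473094-84473343, minus strand, GRCr8): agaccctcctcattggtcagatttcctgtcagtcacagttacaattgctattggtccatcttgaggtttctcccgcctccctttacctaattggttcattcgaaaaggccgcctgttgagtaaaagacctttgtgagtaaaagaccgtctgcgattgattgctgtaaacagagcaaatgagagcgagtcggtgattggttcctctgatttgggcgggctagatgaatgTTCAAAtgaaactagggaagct
In Mcm6 the E2F letters began 139 bases before the start. Mki67 had 2 matches to TTTGAA, at 117 and 99 bases before the start, Cdc20 had 1 at 51 bases and Top2a 1 at 22 bases.

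Genes of protein synthesis and amino acid supply also rose. Of 37 tested cytosolic ribosomal protein genes (of 42 listed), 31 rose and 0 fell (median 0.34), though 1 of them reached 1.5-fold: Rps23, of the small subunit, at 806, 891 and 846 FPKM in the control and 1467, 1491 and 1474 in the siRNA libraries (log2 change 0.80 ± 0.13, adjusted p = 0.00162). Rpl12, of the large subunit, rose by 0.44 ± 0.08. Ribosomal protein genes share sequence with pseudogenes, and how such reads were counted is not given in the sources used here. Of 30 ATF4 targets and amino acid genes (of 32 listed) 21 rose and 0 fell, all 30 with a log2 change above 0 and a median of 0.36, and 14 to 18 rose with any unstretched library left out. Slc7a5, the large neutral amino acid transporter, was at 34.4, 31.8 and 27.2 FPKM in the control and 70.4, 79.5 and 63.4 in the siRNA libraries (log2 change 1.17 ± 0.17, adjusted p = 9.30e-04). Gars and Eprs, which charge tRNAs with glycine and with glutamate and proline, rose by 0.46 ± 0.07 and 0.55 ± 0.09, and Mthfd2, of mitochondrial one-carbon metabolism, by 0.70 ± 0.11. Atf4 itself, a transcription factor of the amino acid response, rose by 0.26 ± 0.06, from 218, 218 and 222 to 259, 274 and 256 FPKM.

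Of 28 genes of the unfolded protein response 10 rose and 0 fell (median 0.18). Trib3, a pseudokinase induced under amino acid shortage and in both of these lists, was at 5.94, 8.60 and 8.94 FPKM in the control and 17.4, 16.6 and 19.2 in the siRNA libraries (log2 change 1.10 ± 0.23, adjusted p = 0.00458). The ATF4-type letters TGATGNAA, on either strand, stood in 7 of 29 matched promoters of the ATF4 list (24.1%) and in 3.27% of all. Trib3 is shown as the matched promoter of a gene named here, with its 1 match, 21 bases before the start, in capitals.
Trib3 (chr3:161275534-161275783, minus strand, GRCr8): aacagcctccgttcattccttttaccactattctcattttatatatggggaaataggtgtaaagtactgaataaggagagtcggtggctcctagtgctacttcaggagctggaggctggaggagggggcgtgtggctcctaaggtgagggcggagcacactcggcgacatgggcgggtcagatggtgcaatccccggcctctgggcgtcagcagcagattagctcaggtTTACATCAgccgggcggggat
For the fatty acid oxidation genes the letters AAGGTCA, bound by nuclear receptors of the ERR family, were in 0 of 28 matched promoters and in 3.77% of all, and for oxidative phosphorylation genes the NRF1 letters GCGCATGC were in 4 of 32 (12.5%) and 2.38%. No match says only that these letters are not in this window.

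Lipid synthesis rose in part. Of 17 fatty acid and triglyceride synthesis genes 9 rose and 3 fell (median 0.43; 1 fell without siRNA 1 or siRNA 2, 0 without control 3 and 5 without siRNA 3), including Fads2, a desaturase, from 37.1, 31.5 and 25.8 to 65.7, 77.8 and 59.9 FPKM (log2 change 1.09 ± 0.23, adjusted p = 0.00553), and the elongase Elovl5 (0.61 ± 0.13). All 23 tested cholesterol biosynthesis genes had a log2 change above 0 (median 0.39), but 6 passed limma's test, 0 of them without control 2, control 3 or siRNA 2, and 2 passed without siRNA 1, 12 without siRNA 3 and 15 without stretched control 3. Fdps, which makes farnesyl pyrophosphate, was at 305, 238 and 229 FPKM in the control and 400.3, 500.2 and 316 in the siRNA libraries (log2 change 0.64 ± 0.17, adjusted p = 0.0141), with the highest value in siRNA 2, and its call was lost without control 2, control 3 or siRNA 2.

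Matrix genes rose beside the fibroblast markers given above, whose part in the result was not tested. The matrix and fibroblast lists overlap: Dcn is in both, and is the 1 fall in each. Of 30 extracellular matrix genes (of 33 listed) 13 rose and 1 fell (median 0.28), and 8, 6, 8 and 7 rose without control 1, control 3, siRNA 1 and siRNA 2. Col5a1, of type V collagen, rose by 0.61 ± 0.10 and Loxl2, a collagen cross-linking oxidase, by 0.57 ± 0.10. Of 22 TGF-beta response genes 8 rose and 0 fell (median 0.27; 4 without control 2 or control 3 and 5 without siRNA 2). Ltbp2, a microfibril protein, was at 49.1, 46.0 and 36.7 FPKM in the control and 93.1, 95.3 and 88.6 in the siRNA libraries, without overlap (log2 change 1.07 ± 0.12, adjusted p = 3.96e-04). Of 26 SRF and MRTF target genes 3 rose and 5 fell (median 0.02), but 2 fell without control 2, control 3, siRNA 1 or siRNA 3, 3 without control 1 and 8 without stretched control 3, and 1 rose without control 3. Cnn1, calponin, a smooth muscle marker, was at 118, 87.4 and 90.5 FPKM in the control and 203, 272 and 147 in the siRNA libraries (log2 change 1.03 ± 0.23, adjusted p = 0.00727). Summed smooth muscle and pericyte markers overlapped, at 5382 to 6553 and 5163 to 7486 FPKM.

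Most markers of macrophages fell. Of 14 macrophage and leukocyte markers (of 16 listed) 10 fell and 0 rose (median −0.67), and their summed FPKM were 205 to 266 in the control and 162 to 174 in the siRNA libraries. The count was 3 without control 2, 6 without siRNA 1 and 5 without siRNA 2. Lyz2, the most abundant of the 14 at a mean of 75.4 FPKM, did not fall (0.13, uncalled). Csf1r (−0.41), Cd14 (−0.06) and Cd53 (−0.44) were uncalled too. Of the falls, C1qb and C1qc were low, at means of 1.48 and 1.60 FPKM. Cd68, a lysosomal glycoprotein of macrophages, was at 29.6, 33.7 and 30.4 FPKM in the control and 19.1, 19.6 and 17.2 in the siRNA libraries, without overlap (log2 change −0.71 ± 0.11, adjusted p = 0.00127). Aif1, an actin-binding protein of macrophages, and C1qa, of complement, fell by 1.12 ± 0.20 and 1.19 ± 0.23, with control 2 the highest library for C1qa. Beside these markers, 5 of 19 inflammatory cytokine and NF-kB targets fell and 1 rose (median −0.16; 3 fell without control 3, siRNA 1 or siRNA 2, and 0 rose without any one unstretched library). Nfkbia, the inhibitor of NF-kB and its target, fell by 0.88 ± 0.11, and Vcam1, an adhesion molecule, by 1.20 ± 0.15. Of 32 interferon response genes 5 fell and 1 rose (median −0.07), beside 28.5% of all genes called. The falls numbered 1 without control 3 or siRNA 1, 2 without control 2, siRNA 2 or siRNA 3, and 3 without control 1. Endothelial markers summed to 112.9 to 127.3 and 127.6 to 134.7 FPKM, but most of this was Eng, at a mean of 81.3 FPKM, which rose by 0.37. Of the 11 tested endothelial markers 4 lay above 0 and 7 below (median −0.36), with 1 called higher and 1 lower. Epicardial markers summed to 53.2 to 61.9 and 39.4 to 49.0. Of 8 tested epicardial and mesothelial markers 2 rose and 1 fell, with 4 above 0 and 4 below, and 0 fell without control 1, control 2 or any 1 siRNA library. Krt19, a keratin of mesothelium, was low, at 0.112, 0.405 and 0.991 FPKM in the control and 2.97, 2.15 and 2.9 in the siRNA libraries (log2 change 1.32 ± 0.21, adjusted p = 0.00134). The keratins Krt8 (−0.91, limma's adjusted p = 0.0468) and Krt18 (−0.67, uncalled) went the other way. Schwann and neuronal markers summed to 6.21 to 7.66 and 5.89 to 7.99 FPKM and erythroid markers to 2.35 to 3.22 and 2.19 to 8.69.

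Of 35 immediate early genes 3 rose and 5 fell (median 0.03), a share near the 28.5% of all genes tested. Klf2, a transcription factor known for its response to flow, was at 9.45, 9.38 and 10.4 FPKM in the control and 18.3, 18.8 and 19.7 in the siRNA libraries (log2 change 0.89 ± 0.09, adjusted p = 1.31e-04), and Dusp5, a phosphatase of ERK, fell by 0.67 ± 0.12. Of 11 genes of the RNA interference machinery 1 rose, Ago2, the slicing Argonaute, at 0.43 ± 0.09. Of 36 growth factor and paracrine genes 5 rose and 2 fell, beside 28.5% of all genes called. Of the 36, 1 passed the filter on low values only through the unstretched controls and 1 only through the siRNA group. Both had to differ. The rises numbered 1 without control 3 or siRNA 2 and 2 without control 2 or siRNA 1. The falls numbered 1 without control 1, control 2, control 3 or siRNA 1. Of 28 D cyclins, Cdk inhibitors and p53 targets 6 rose and 5 fell; without siRNA 1 these were 3 and 2, and 3 fell without control 2, control 3 or siRNA 2. Of 24 heat shock and chaperone genes 5 rose and 0 fell, beside 14.6% and 13.9% of all genes. H19, an imprinted RNA of fetal tissue, was at 12.5, 19.3 and 15 FPKM in the control and 35.9, 28.9 and 48.4 in the siRNA libraries (log2 change 1.21 ± 0.19, adjusted p = 0.00131).

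**Figure D4:**
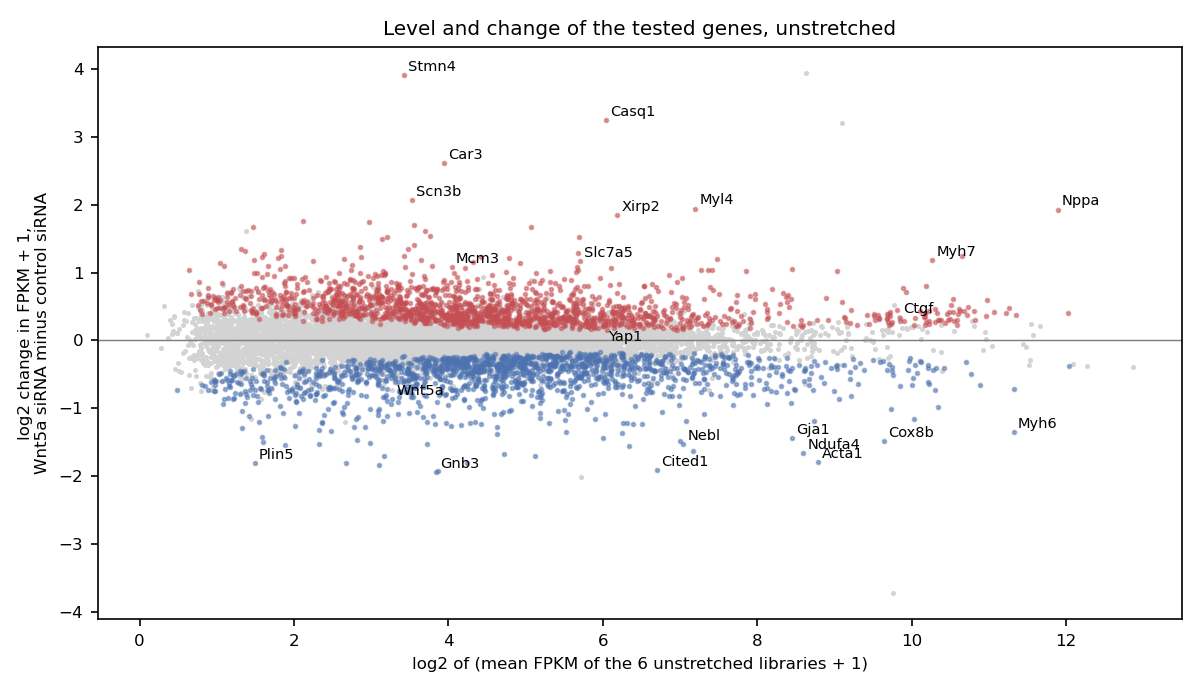
Log2 change in FPKM + 1 with Wnt5a siRNA against the log2 mean level of the 6 unstretched libraries for the tested genes (Mir6326, listed at 0 in the siRNA libraries, is left out); called genes in red (higher) and blue (lower), others in grey. Stmn4 and Casq1 rose by 3.91 and 3.25, and Nppa had the highest level of the labelled genes.

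The largest rises came from several kinds of gene. Stmn4, a stathmin that binds tubulin and is known from neurons, was at 0.583, 0.444 and 0 FPKM in the control and 23.3, 19.1 and 14.8 in the siRNA libraries, near or at 0 in the controls and well above it in each siRNA library (log2 change 3.91 ± 0.37, adjusted p = 1.20e-04). Casq1 came next, then Car3 at 2.44, 3.61 and 3.50 FPKM in the control and 29.1, 15 and 32.6 in the siRNA libraries (log2 change 2.61 ± 0.31, adjusted p = 3.96e-04), with siRNA 2 the lowest of its group. Scn3b, a beta subunit of sodium channels, was at 4.51, 2.6 and 3.29 FPKM in the control and 20.8, 17.2 and 14.7 in the siRNA libraries (log2 change 2.06 ± 0.20, adjusted p = 1.14e-04). Myl4, Nppa and Xirp2 were also among the largest rises. So were Pcp4, a small calmodulin-binding protein (1.74 ± 0.36), Fkbp1b, a stabiliser of the ryanodine receptor (1.70 ± 0.37), Reg3b, a secreted lectin (1.68 ± 0.22), and Scd1, a fatty acid desaturase (1.61 ± 0.41), whose call was lost without siRNA 2. Col11a1, of type XI collagen, rose by 1.54 ± 0.18, Serpinf1, a secreted serpin, by 1.53 ± 0.26 and Slc7a3, a transporter of cationic amino acids, by 1.52 ± 0.29. Separate groups were a condition for naming the largest rises, so the lack of overlap in these 7 genes is no result.

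The largest falls included genes of the G protein, lipid and mitochondrial systems. Mir6326, a microRNA precursor, was listed at 537, 971 and 529 FPKM in the control and at 0 in all 3 siRNA libraries; such an entry can be a failed estimate, so its call may not be a change in expression, and it was lost without control 2 or siRNA 1. Gnb3, a G protein beta subunit, was at 16.9, 22.4 and 25.6 FPKM in the control and 5.41, 2.92 and 6.88 in the siRNA libraries (log2 change −1.94 ± 0.39, adjusted p = 0.00389). Stard10, a lipid transfer protein, was at 18.9, 24.1 and 23.0 FPKM in the control and 4.28, 4.10 and 7.06 in the siRNA libraries (log2 change −1.93 ± 0.31, adjusted p = 0.00134), and Cited1, a transcriptional co-regulator, at 153, 178 and 156 FPKM in the control and 41.0, 52.4 and 35 in the siRNA libraries (log2 change −1.92 ± 0.45, adjusted p = 0.00914). The largest falls were named under the same condition of separate groups. Hfe2, hemojuvelin of iron regulation, fell by 1.83 ± 0.30, Fhit, a hydrolase and tumour suppressor, by 1.80 ± 0.27, Pgam2 by 1.80 ± 0.31, Macrod1, which removes ADP-ribose from proteins, by 1.70 ± 0.33, and Doc2g, a C2 domain protein, by 1.70 ± 0.35. Tecrl, a reductase-like protein tied to inherited arrhythmia, was at 38.9, 38.3 and 40.5 FPKM in the control and 11.6, 10.9 and 12.3 in the siRNA libraries, with tight groups (log2 change −1.68 ± 0.13, adjusted p = 1.71e-05). Ndufa4 and Ech1, an auxiliary enzyme of fatty acid oxidation (−1.63 ± 0.24), followed, then Hhatl, an acyltransferase-like protein of muscle (−1.56 ± 0.29).

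The siRNA change was also compared with that in stretched cells, which carry the same siRNA labels. The 2 comparisons share no library, only the pooled estimate of the spread. One library stands apart there: stretched control 3 lay at −3.99 on the second principal component, beside 25.2 and 24.8 for the other stretched controls and −10.6 to −18.1 for stretched Wnt5a siRNA, and values are given with and without it. Under stretch 13.2% of genes rose and 14.2% fell with Wnt5a siRNA. Of the 3002 genes called without stretch, 539 (18%) were called the same way under stretch, which is 18.7% of the stretched calls, and 347 the opposite way. Without stretched control 3 the numbers were 1040 (34.6% and 22.3%) and 404. The difference of the 2 changes was called for 2503 genes (23.8%), or 3634 without stretched control 3, and for 1351 of the 3002 (45%), or 1442 (48%). The 3002 were called on the same unstretched libraries that enter the difference, so their share cannot be set against that of all genes.

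The fatty acid oxidation genes parted between the 2 conditions. In 27 of the 35 the change without stretch was called below that under stretch, and in 29 without stretched control 3. The 35 hold the 2 genes that passed the filter only through the unstretched controls. The median log2 change of the 35 under stretch was 0.06. Relative to the unstretched control mean, their median level was −0.96, −0.67 and −1.25 in the stretched controls and −0.91, −0.96 and −0.69 in stretched Wnt5a siRNA. The unstretched siRNA libraries lay at −0.73, −0.86 and −0.63. For Cd36 the changes were −1.24 ± 0.14 without and 0.02 ± 0.14 with stretch (difference −1.25 ± 0.20, adjusted p = 0.00248, or −1.17 and 0.00175 without stretched control 3). Of oxidative phosphorylation genes 12 of 38 differed, all below, and of the 33 calcium handling and ion channel genes 11 differed below and 3 above. Beside these counts, a difference in either direction was called for 23.8% of all genes.

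Fetal genes mostly differed the other way. In 10 of the 18 fetal and hypertrophic markers the change without stretch was called above that under stretch (11 without stretched control 3), and in 1 below it (2). Nppa rose by 1.93 ± 0.35 without stretch and fell by 1.46 with it (difference 3.38 ± 0.49, adjusted p = 0.00173, or 3.15 and 9.87e-04 without stretched control 3). For Myh7 the changes were 1.18 ± 0.13 and 0.06 ± 0.13 (difference 1.12 ± 0.19, adjusted p = 0.00257, or 1.09 and 0.00177 without stretched control 3). Ctgf and Cyr61, uncalled without stretch, fell by 1.24 and 0.92 with stretch, and both differences passed. That of Ctgf was 1.58 ± 0.31, adjusted p = 0.00541, or 1.78 and 0.00119 without stretched control 3. That of Cyr61 was 1.09 ± 0.25, adjusted p = 0.0104, or 1.24 and 0.00254 without stretched control 3. In the stretched controls Wnt5a stood at 6.52, 5.66 and 8.22 FPKM, and in the stretched siRNA libraries at 6.22, 5.88 and 5.56. The means of the siRNA groups were 5.85 FPKM without and 5.88 with stretch, and those of the controls 11.4 and 6.8. Its change was −0.87 ± 0.14 without stretch and −0.17 ± 0.14, uncalled, with it (difference −0.70 ± 0.20, adjusted p = 0.0244, or −0.83 and 0.00481 without stretched control 3). The part of these Wnt5a levels in the other differences was not tested.

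Cell cycle and ribosomal genes rose in part under stretch too. Of the 29 DNA replication genes 8 had a larger change without stretch, of the 28 mitosis genes 1, and of the 37 ribosomal protein genes 1, beside a difference in either direction for 23.8% of all genes. Under stretch 14, 6 and 15 of these rose, or 16, 22 and 30 without stretched control 3. Casq1 changed by 3.25 ± 0.34 and 1.51 ± 0.34 (difference 1.74 ± 0.48, adjusted p = 0.0223, or 1.16 and 4.21e-04 without stretched control 3), while Car3 changed by 2.61 ± 0.31 and 2.52 ± 0.31, a difference of 0.09 that did not pass (adjusted p = 0.905).

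**Figure D5:**
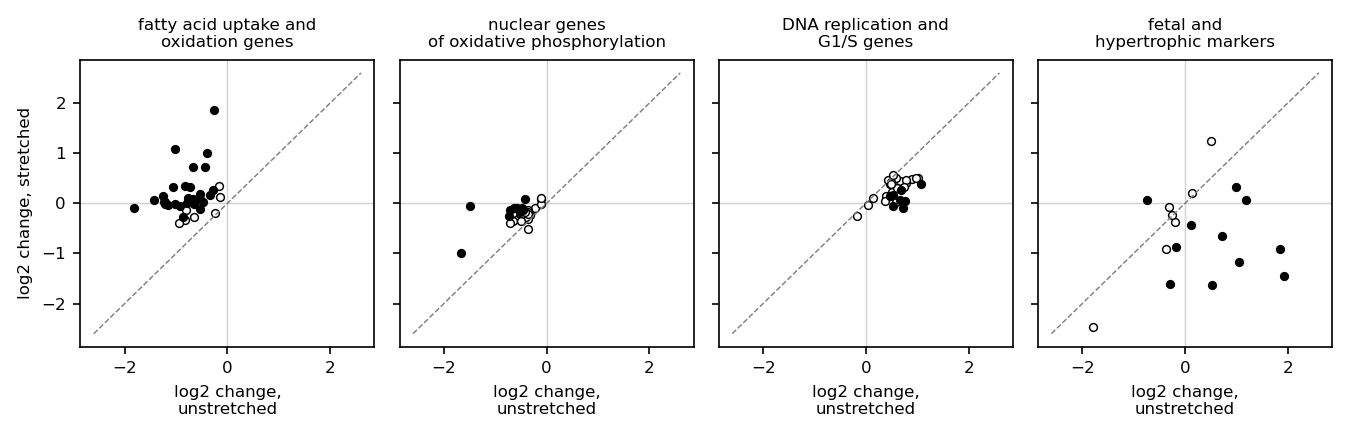
Log2 change with Wnt5a siRNA under stretch against that without stretch for the members of 4 lists; filled points are genes whose difference was called, the dashed line is equal change. Fatty acid oxidation genes lay below 0 without stretch and around 0 with it, and most fetal and hypertrophic markers lay below the line.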

How the data were processed

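RNA of cultured rat cardiomyocytes was extracted as total RNA (miRNeasy) and made into TruSeq Stranded mRNA libraries, per the labels' protocols. The authors deposited FPKM values per gene symbol, 1 table per library. The submitters' processing notes name the rat build rn6, Cuffdiff 2.2.1, TopHat2 2.1.1 and Bowtie2. For the annotation, the scaling between libraries and the strand setting, the sources used here give nothing. Genes with at least 1 FPKM in at least 3 of the 12 libraries were kept. Log2(FPKM + 1) was fitted with limma 3.58.1 (R 4.3.3) on 4 group means over all 12 libraries, with a trended prior, 2-sided tests and Benjamini-Hochberg adjustment over all genes tested, threshold 0.05. A fold change on this scale understates the change of low genes. The script was tested on simulated data. Alternatives were a pseudocount of 0.1, no filter or a filter at 5 FPKM, median ratio, TPM and quantile scaling, no trend, only the 6 libraries compared, a replicate block, a fold of 1.5 and leaving out each library. The genes named were Wnt5a and 8 readouts, up to 15 rises and 15 falls without overlap and with a mean of at least 5 FPKM, and up to 4 called members per list. The gene lists, the rule and the comparison itself were chosen with earlier results of these data known. Promoters and their coordinates came from RefSeq (GRCr8), not from rn6, and were matched by symbol. Some results are not reported here.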

Additional observations from a re-analysis of the deposited data

Results flagged for a closer look

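The change with Wnt5a siRNA differed between unstretched and stretched cells, by limma's test of the difference itself, for 2503 genes (23.8% of those tested). For 79 of the 123 genes named above that difference passed. Most of the 123 were named for their change in the same unstretched libraries, so their share cannot be set against that of all genes. All values are differences in log2 change, unstretched minus stretched, and a negative value is a lower change without stretch; each group had 3 libraries, and stretched control 3 stood apart from its group.

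Of the pathway, these were −0.70 for Wnt5a, 0.38 for Wls, 0.55 for Ptk7, −0.73 for Fzd1, 0.87 for Fzd2, 0.96 for Fzd5 and −0.48 for Dkk3. These were followed by −0.92 for Sfrp2, 0.98 for Ccnd1, −0.81 for Tcf7l2, 0.98 for Camk2b, −0.56 for Plcb4 and −1.29 for Rcan2. Of YAP-related, fetal and contractile genes, these were 1.09 for Cyr61, 1.58 for Ctgf, −0.52 for Vgll4, 0.57 for Myof, 3.38 for Nppa and 2.15 for Nppb. These were followed by 1.12 for Myh7, 1.02 for Myl4, 2.75 for Xirp2, −0.80 for Fhl2 and −1.55 for Nebl. Of genes of excitation, signalling and cardiac identity, these were −1.36 for Pln, −0.51 for Gja1, −1.08 for Cacna1c, −1.29 for Kcnj2, 1.74 for Casq1, 1.60 for Fkbp1b and 2.08 for Scn3b. These were followed by −1.30 for Car14, −1.12 for Ckm, −0.75 for Tbx5, −0.80 for Prox1, −0.41 for Chrm2, −1.24 for Ednra and −1.50 for Adra1b. Of metabolic and mitochondrial genes, these were −1.71 for Plin5, −1.25 for Cd36, −1.0 for Slc25a20, −1.41 for Pdk4, −1.94 for Ech1, 1.15 for Pfkp, −1.62 for Pgam2 and −1.43 for Cox8b. These were followed by −0.67 for Ndufa4, −0.34 for Ndufv2, −0.47 for Atp5c1, −0.63 for Gpx1, −0.91 for Cat, 0.75 for Fdps and 0.64 for Elovl5. Of genes of growth and amino acid supply, these were 0.69 for Mcm3, 0.41 for Rrm2, 0.75 for Cdc20, 0.67 for Atf4, 0.52 for Gars, 0.79 for Mthfd2, 0.38 for Eprs and 0.54 for Ago2. Of matrix and non-myocyte markers, these were 1.12 for S100a4, −1.34 for Dcn, 2.31 for Cnn1, 0.81 for Ltbp2, 0.79 for Loxl2, −0.47 for Cd68, −0.56 for Nfkbia and −1.60 for Vcam1. Among the remaining genes, these were 3.82 for Stmn4, −1.97 for Gnb3, −1.56 for Stard10, −1.48 for Hfe2 and −1.48 for Macrod1. These were followed by −2.31 for Doc2g, −1.27 for Tecrl, −1.45 for Hhatl and −0.83 for H19. Mir6326 had −12.91, which rests on libraries listed at 0. Plin5 passed the filter on low values only through the unstretched controls, so its −1.71 was built in by the filter and is no test.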

How the results depend on the processing

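The log2 change of Wnt5a ranged from −0.97 to −0.73 over all alternatives, and no alternative changed its call. Only genes past 1.5-fold as well gave 905 calls, 438 higher and 467 lower, and 1338 differences between the conditions. With each library left out in turn, the calls ranged from 1758 to 3935, the higher ones from 926 to 2000, the lower ones from 832 to 1935 and the differences from 1572 to 3634; the runs without a stretched library other than stretched control 3 were chosen after seeing the data. The fewest differences came without stretched Wnt5a siRNA 3 (1572) and unstretched control 3 (1604), and the most calls without stretched control 3. The other settings kept the counts of calls within 1.5 times. The labels give the groups the same replicate numbers, and same-numbered libraries correlated at 0.16, 0.058 and 0.186. For replicates 1 and 3 this was above the highest correlations with another number. Whether the numbers pair the libraries cannot be told from these values. The main tests, those of the difference included, take no account of pairing. A fit with a replicate block called 3093 genes and 2566 differences between the conditions. The siRNA library of replicate 2 correlated better with a control of another number (0.066). Of 2696 gene results under alternatives, 2648 kept direction and call, 47 lost the call, 1 gained it (Ankrd1 under the replicate block) and 0 reversed. Under that block 4 of the 21 YAP and TAZ targets fell, beside 1 without it. Of 1980 list counts, 284 moved by over 1.5 times. The read depth behind FPKM is unknown, the fit has 8 residual degrees of freedom, and an exact permutation test of 3 against 3 cannot go below 0.1.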
